A study of Arabidopsis thaliana with 6 samples.

Results

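The xyloglucan endotransglucosylase/hydrolase (XTH) genes XTH1 to XTH33 of Arabidopsis thaliana were examined in cells from the 2 sides of the floral abscission zone. The members were taken by locus, and all 33 were found among the 33602 genes of the count table under the same XTH names. Secession cells (SEC) leave the plant with the shed floral organs, and residuum cells (REC) stay on the receptacle. Both cell types carry the transgene proQRT2::nlsGFP-GUS, came from stage 16 flowers and, per the series' design text, were isolated by their fluorescence. The promoter of this transgene is that of QRT2, whose own RNA level is given below for both sides. There were 3 SEC and 3 REC libraries of polyA RNA from protoplasts. No label ties a library to plants or a sort of its own. The p-values therefore cover the spread between these libraries alone, and that spread may be technical.

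Xyloglucan is the main hemicellulose of primary walls in flowering plants other than grasses, and its chains coat and bridge cellulose microfibrils. XTH enzymes cut the glucan backbone of xyloglucan. They then rejoin the cut end to another xyloglucan chain (endotransglucosylase activity) or, in a minority of members, pass it to water (hydrolase activity), and the family is known for wall loosening and repair in growing, ripening and separating tissues. The family is divided here into class I (XTH1 to XTH11), class II (XTH12 to XTH26), class IIIA (XTH31 and XTH32, the class with known hydrolases) and class IIIB (XTH27 to XTH30 and XTH33).

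The catalytic site is short, and its 3 acidic residues are shared by most members. It is shown for the members that carry most of the results below. The coding bases of this site were read from the RefSeq annotation and genome of build TAIR10.1, 5′ to 3′ on the coding strand, with capitals on the 3 codons for the acidic residues of the active site.
XTH23 (chr4:13129069-13129098, plus strand): tgggacGAGattGACtttGAGttcttggga
XTH22 (chr5:23307839-23307868, minus strand): tgggacGAGataGATttcGAGtttttaggg
XTH24 (chr4:14820042-14820071, minus strand): tgggatGAGattGATtttGAGttcttgggt
XTH18 (chr4:14826569-14826598, minus strand): tgggatGAGattGATttcGAGttcttagga
XTH29 (chr4:10403396-10403425, minus strand): catgacGAActaGACataGAGtttttaggg
XTH5 (chr5:4475714-4475743, minus strand): catgatGAGataGACtttGAGtttctaggg
XTH4 (chr2:2764490-2764519, plus strand): catgacGAGataGACtttGAGttccttgga
XTH11 (chr3:18007737-18007766, plus strand): catgatGAGctcTGTttcCAGatcttggga
All 33 members had a complete reading frame, and all except XTH11 coded for acidic residues at the 3 codons in capitals. XTH11 coded for an acidic residue at 1 of the 3, at the place that a global alignment with XTH22 gave.

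XTH RNA was more abundant in SEC, and a different member led on each side. The summed level of the family, in CPM (read counts scaled to a common library size with edgeR's TMM factors) per kilobase of exon, was 1750, 1960 and 2030 in SEC libraries 1, 2 and 3, against 377, 320 and 307 in REC libraries 1, 2 and 3. The mean was 1910 ± 145 in SEC and 334 ± 37.1 in REC (SD, n = 3 each), a ratio of 5.72, and the cell types did not overlap. Without XTH23 the ratio of the means was 2.56. With scaling by library size alone the ratios were 3.9 for the family and 1.75 without XTH23. In these bulk samples, fewer cells with a transcript and less of it per cell cannot be told apart.

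**Figure D1:**
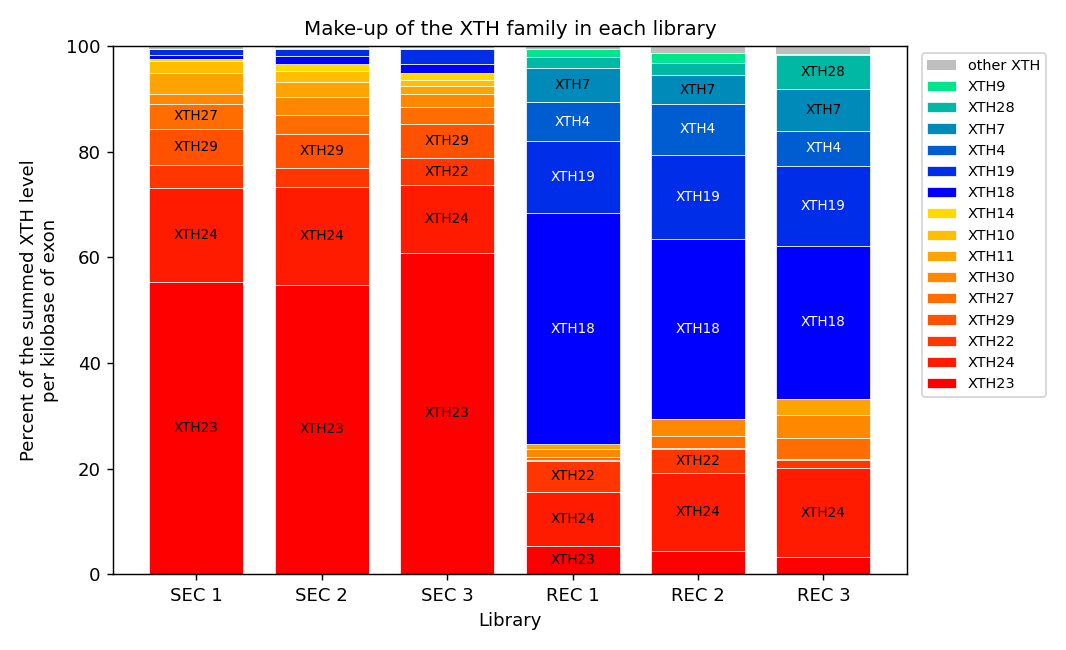
Share of each XTH gene in the summed XTH level per kilobase of exon (percent), 1 bar a library. XTH23 takes 54.8% to 60.9% of the 3 SEC bars and 3.17% to 5.34% of the 3 REC bars, in which XTH18 is the largest segment at 29.0% to 43.7%.

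On this per-length scale XTH23 made up 57 ± 3.34% of the family in SEC and 4.3 ± 1.09% in REC (SD, n = 3 each), while XTH18 made up 1.28 ± 0.572% in SEC and 35.6 ± 7.47% in REC. XTH24 took like shares on both sides, 16.3 ± 3.14% in SEC and 13.9 ± 3.43% in REC. The 3 most abundant members of each library together held 79.9 ± 0.119% of the level in SEC and 64.3 ± 3.24% in REC. Class II held 82.0 ± 2.47% in SEC and 73.0 ± 6.72% in REC, and class I held 4.97 ± 1.74% in SEC and 17.6 ± 1.58% in REC. These shares describe the libraries and were not tested. They depend on the lengths used, since the RefSeq exon length exceeds the gene span of the count table for XTH22 (1590 against 1153 bases) and XTH23 (1373 against 1242). Per kilobase of gene span, SEC means were 1210 CPM for XTH23, 118 for XTH22 and 73.2 for XTH29. Per kilobase of exon they were 1090, 85.4 and 124. For XTH18 in REC the values were 123 by span and 121 by exon.

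Of the 33 members, 9 had no count in any library (XTH1, XTH2, XTH3, XTH8, XTH13, XTH17, XTH20, XTH21 and XTH26), 8 had counts too low to test, and 16 passed the filter on low counts. Among the 16 tested there were 10 called higher in SEC, 5 called lower and 1 without a call (edgeR quasi-likelihood test, Benjamini-Hochberg adjusted p under 0.05 over all genes). Over all genes tested, 60.8% were called, 28.9% higher in SEC and 31.9% lower in SEC. SEC and REC libraries did not overlap for 15 of the 16 members, against 71.5% of all genes tested. The median log2 fold change (SEC minus REC) of the 16 was 2.68, also with the 2 members at 0 counts in a cell type set to their bound, against -0.07 over all genes. A member that passed the filter through 1 cell type alone had to differ, so these counts describe the tested members and not the family.

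**Figure D2:**
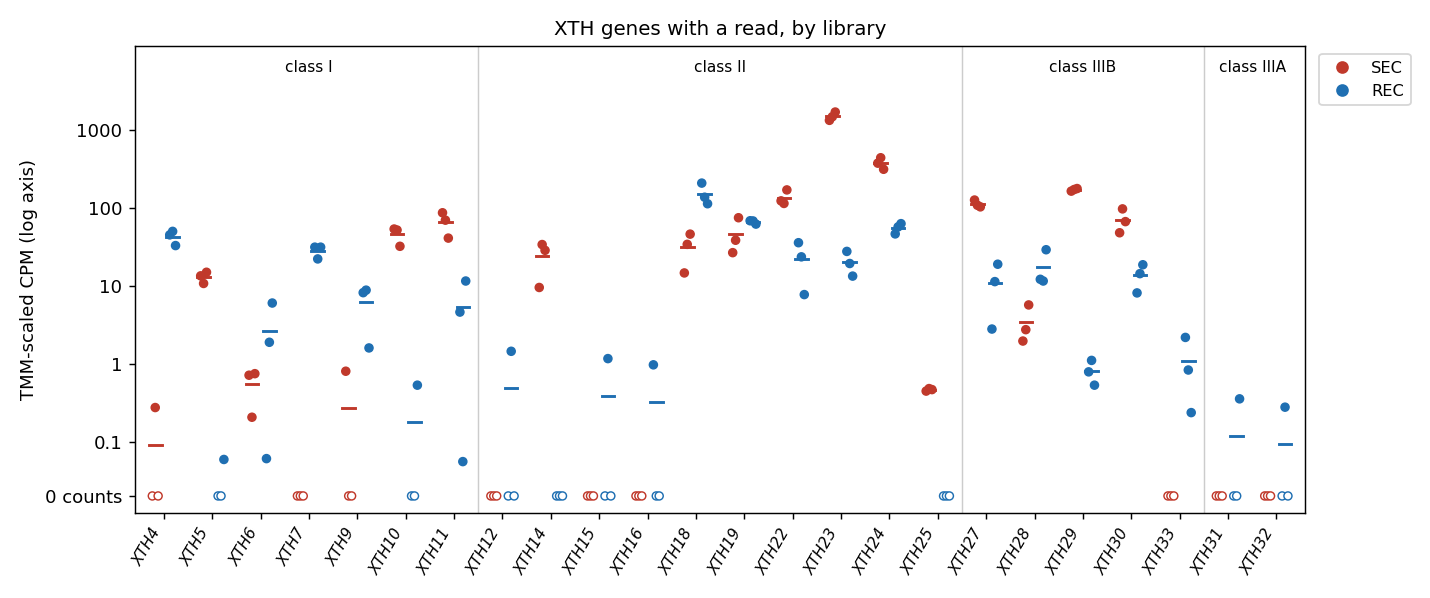
TMM-scaled CPM (log axis) of the 24 XTH genes with at least 1 count, 1 point a library, with SEC left of REC, horizontal lines at the means, and open points for libraries with 0 counts. The highest points are the SEC libraries of XTH23, at 1330 to 1700 CPM, and XTH7 and XTH14 have open points in all libraries of 1 cell type.

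Levels in CPM are given next by class, starting with class II, which holds the most abundant members. XTH23 (AT4G25810; TAIR10 chromosome 4, 13128643 to 13129884, plus strand, 3 exons) had 1330, 1480 and 1700 CPM in the SEC libraries and 27.6, 19.3 and 13.3 CPM in the REC libraries. Every SEC library stood far above every REC library, and XTH23 was the most abundant XTH transcript per length in SEC, at 1090 ± 134 CPM per kilobase (SD, n = 3). XTH23 was higher in SEC by log2 6.22 ± 0.35 (SE; edgeR adjusted p = 1.4e-05). XTH22 (AT5G57560; chromosome 5, 23307130 to 23308282, minus strand, 2 exons), also known as TCH4, a gene first found by its induction on touch, is the closest relative of XTH23, with 80.9% identity of the coding bases. It had 123, 114 and 170 CPM in SEC and 35.7, 23.5 and 7.7 CPM in REC, with no overlap, and was higher by log2 2.60 ± 0.50 (SE; edgeR adjusted p = 0.00255). The log2 ratio of XTH23 to XTH22 counts within a library was 3.48 ± 0.19 in SEC and 0.05 ± 0.65 in REC (SD, n = 3 each). The 2 sets of ratios did not overlap (exact permutation test, two-sided p = 0.1, the smallest that 3 against 3 libraries can give). This test could not fall under 0.05, and the ratios rest on the same counts as the fold changes just given.

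XTH24 (AT4G30270; chromosome 4, 14819192 to 14820592, minus strand, 3 exons), known as MERI5 from its expression in meristems, had 375, 440 and 313 CPM in SEC and 46.3, 57 and 62.7 CPM in REC. It was abundant on both sides and higher in SEC without overlap (log2 2.76 ± 0.23, SE; edgeR adjusted p = 4.16e-05). XTH14 (AT4G25820; chromosome 4, 13130297 to 13131788, plus strand), described from roots and root hairs, had 9.5, 33.8 and 28.5 CPM in SEC and 0 counts in all REC libraries. Against a floor of 3 counts over the REC libraries it was at least 427-fold higher in SEC (edgeR adjusted p = 0.000263), and at least 278-fold higher without REC replicate 2. XTH18 (AT4G30280; chromosome 4, 14825808 to 14827047, minus strand), a member known from roots, ran the other way, with 14.6, 34.0 and 46.0 CPM in SEC and 208, 137 and 113 CPM in REC. It was the most abundant XTH transcript per length in REC, at 121 ± 39.2 CPM per kilobase (SD, n = 3), and was lower in SEC (log2 -2.27 ± 0.43, SE; edgeR adjusted p = 0.00231).

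XTH19 (AT4G30290; chromosome 4, 14828712 to 14830016, minus strand), known as an auxin-responsive root gene, had 26.6, 38.4 and 74.7 CPM in SEC and 68.3, 67.9 and 61.9 CPM in REC. SEC replicate 3 lay above all REC libraries and the other SEC libraries below them, and the gene was not called (log2 -0.50 ± 0.36, SE; edgeR adjusted p = 0.256). It was called lower without SEC replicate 3 (log2 -1.02, adjusted p = 0.0191), with library size alone (log2 -1.06, adjusted p = 0.0334) and with limma voom (log2 -0.73, adjusted p = 0.0476). XTH18 and XTH19 share 89.2% of their coding bases. Of the 50-base stretches of their transcripts, 1.57% in XTH18 and 1.63% in XTH19 occur exactly at another site of the genome, where reads would be left out of the counts.

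Of the 11 class I members 6 were tested, of which 3 were higher in SEC and 3 lower. Over all genes tested 28.9% were higher and 31.9% lower. XTH5 (AT5G13870; chromosome 5, 4474976 to 4477045, minus strand) had 13.4, 10.7 and 14.9 CPM in SEC and a single count in REC, in replicate 3. The ratio of SEC to REC was 660 (95% counting interval 118 to 26100; edgeR adjusted p = 7.2e-05), and without REC replicate 3, with 0 counts left in REC, it was at least 148-fold higher. The ratio was 429 without REC replicate 2. The interval covers counting error only and not the spread between libraries. XTH4 (AT2G06850; chromosome 2, 2763526 to 2765720, plus strand), a member described in growing and in woody tissue, is the closest relative of XTH5, with 72.5% identity of the coding bases, and ran the other way. It had 0, 0.273 and 0 CPM in SEC and 45.0, 49.9 and 32.8 CPM in REC (log2 -8.54 ± 0.75, SE; edgeR adjusted p = 5.14e-05), and all 4 of its SEC counts came from replicate 2, without which its level was lower by at least 314-fold.

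XTH7 (AT4G37800; chromosome 4, 17775474 to 17777397, minus strand) had 0 counts in every SEC library and 31.3, 22.1 and 31.3 CPM in REC. It was at least 344-fold lower in SEC (edgeR adjusted p = 5.36e-05), and at least 206-fold lower without SEC replicate 2. XTH9 (AT4G03210; chromosome 4, 1415949 to 1417352, plus strand), described in shoot apices and stems, had 0.799, 0 and 0 CPM in SEC and 8.15, 8.78 and 1.59 CPM in REC. Its call was the least secure of the lower members (log2 -4.53 ± 1.45, SE; edgeR adjusted p = 0.0253). Leaving out SEC replicate 2 or 3, or REC replicate 1 or 2, ended it (adjusted p 0.0582 to 0.0665), and with SEC replicate 1 left out no count remained in SEC and its level was lower by at least 52.6-fold.

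XTH10 (AT2G14620; chromosome 2, 6244781 to 6246233, plus strand) had 53.5, 51.9 and 32.1 CPM in SEC and 0, 0 and 0.529 CPM in REC. All 9 of its REC counts came from replicate 3, and without that library it was at least 539-fold higher in SEC. With all libraries it was higher by log2 7.97 ± 0.96 (SE; edgeR adjusted p = 0.000232). Without REC replicate 2 that value was 7.38. XTH11 (AT3G48580; chromosome 3, 18007165 to 18008488, plus strand), the member with an acidic residue at only 1 of the 3 catalytic codons, had 86.5, 69.5 and 40.9 CPM in SEC and 4.59, 0.0552 and 11.5 CPM in REC. The sides did not overlap, and XTH11 was higher by log2 3.61 ± 1.08 (SE; edgeR adjusted p = 0.0195), but the REC libraries spread widely. The call ended without REC replicate 1 (adjusted p = 0.057), SEC replicate 1 (0.0555) or SEC replicate 2 (0.0529), and leaving out REC replicate 3 gave 4.85 while leaving out REC replicate 2 gave 3.02.

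**Figure D3:**
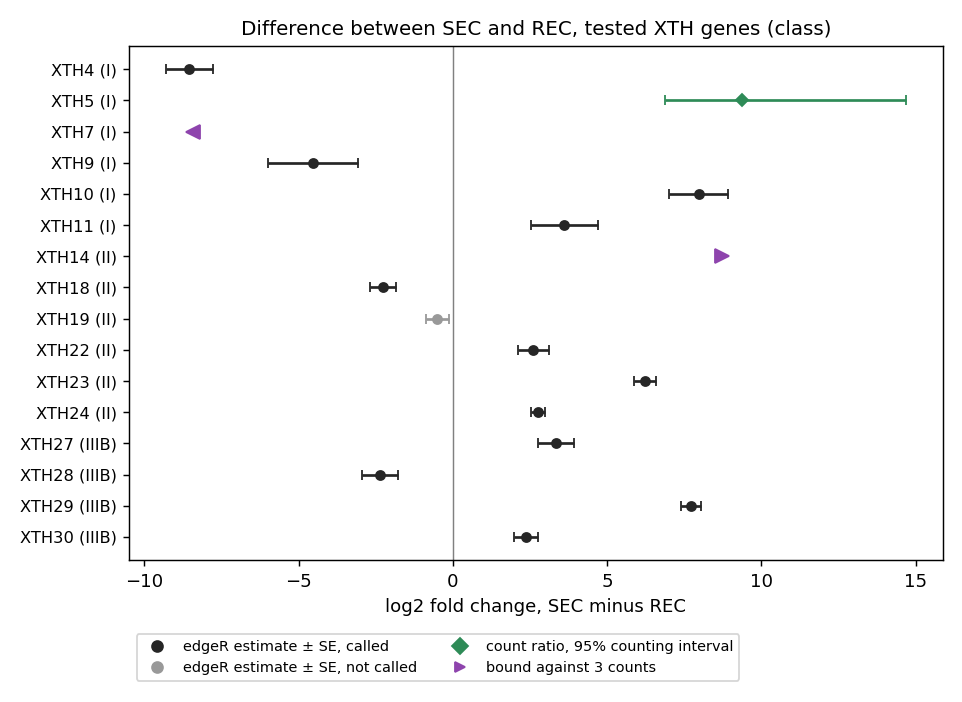
Log2 fold change (SEC minus REC) of the 16 tested XTH genes, with class in brackets: circles are edgeR estimates with SE bars, the diamond is a count ratio with its 95% counting interval, and triangles are bounds against 3 counts over a cell type. 10 genes lie right of 0 and 6 left of it, of which XTH19 (grey) was not called.

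Class IIIB had 3 higher and 1 lower member, against 28.9% higher and 31.9% lower over all genes tested. XTH29 (AT4G18990; chromosome 4, 10401910 to 10404248, minus strand) had 164, 172 and 177 CPM in SEC and 0.784, 1.1 and 0.529 CPM in REC. It had the smallest adjusted p of the tested XTH genes and a narrow spread in SEC (log2 7.71 ± 0.33, SE; edgeR adjusted p = 1.17e-05). Its REC level rested on 13, 20 and 9 counts. XTH30 (AT1G32170; chromosome 1, 11575320 to 11577927, plus strand), its closest relative at 70.0% identity and known for a role in salt response, had 47.9, 97.0 and 66.6 CPM in SEC and 8.09, 14.3 and 18.6 CPM in REC (log2 2.37 ± 0.39, SE; edgeR adjusted p = 0.00117).

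XTH27 and XTH28, which share 77.7% of their coding bases, ran opposite ways. XTH27 (AT2G01850; chromosome 2, 385199 to 387344, plus strand), known from vein and tracheary element development in leaves, had 126, 108 and 103 CPM in SEC and 2.78, 11.3 and 18.9 CPM in REC. It was higher in SEC by log2 3.35 ± 0.59 (SE; edgeR adjusted p = 0.00163), and by 4.0 without REC replicate 3. XTH28 (AT1G14720; chromosome 1, 5066636 to 5068645, minus strand), known for its part in stamen filament growth, had 1.95, 2.73 and 5.67 CPM in SEC and 12.1, 11.5 and 29.0 CPM in REC. It was lower in SEC without overlap (log2 -2.35 ± 0.58, SE; edgeR adjusted p = 0.00795). Of the 10 pairs of members that are each other's closest relatives by coding bases, 4 had both genes tested. XTH4 with XTH5 and XTH27 with XTH28 were called in opposite directions, and XTH22 with XTH23 and XTH29 with XTH30 were both higher.

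The 8 members with counts too low to test held 5 to 156 counts over the 6 libraries. XTH33 (AT1G10550), which codes for a form anchored in the plasma membrane, was at 0 in every SEC library and had 36, 15 and 4 counts in REC, a level at least 13-fold lower in SEC. With no filter on low counts it was called lower (edgeR adjusted p = 0.0335). Without SEC replicate 2 it passed the filter, the bound was 7.81-fold and it was not called (edgeR adjusted p = 0.053). It also passed the filter without SEC replicate 1, SEC replicate 3 or REC replicate 3. In these fits XTH33 was called lower (edgeR adjusted p = 0.0436, 0.0442 and 0.0128), and the bound was 18.0-fold without REC replicate 3. XTH25 had 5, 7 and 5 counts in SEC and 0 in REC, at least 7.99-fold higher, and was not called with no filter (edgeR adjusted p = 0.06). XTH6 had 8, 3 and 8 counts in SEC and 1, 34 and 102 counts in REC, which overlap. Without REC replicate 1 it passed the filter and was called lower (log2 -2.83; edgeR adjusted p = 0.0403). Without any 1 of the SEC libraries it passed the filter and was not called (edgeR adjusted p 0.252 to 0.362). The class IIIA genes XTH31 and XTH32 had 0 counts in SEC and a total of 6 and 5 counts in REC, each from a single library, so the known hydrolase class was close to undetected on both sides. XTH12, XTH15 and XTH16 also had counts in 1 REC library each, 26 and 21 in REC replicate 2 and 16 in REC replicate 1. The XTH31 counts were in REC replicate 3 and those of XTH32 in REC replicate 2. For members with 0 counts, 3 counts over a cell type correspond to 0.0818 CPM in SEC and 0.058 CPM in REC, limits that cover counting error only.

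Neighbouring XTH genes differed in level, and some in direction. XTH24, XTH18 and XTH19 lie in this order on chromosome 4 on the minus strand, with 5.22 kb between XTH24 and XTH18 and 1.66 kb between XTH18 and XTH19. The log2 ratio of XTH24 to XTH18 counts was 4.68, 3.69 and 2.77 in the SEC libraries and -2.17, -1.26 and -0.84 in the REC libraries. XTH24 was the more abundant of this pair in every SEC library and XTH18 in every REC library, which follows from the levels given above. The ratios did not overlap (exact permutation test, two-sided p = 0.1, the smallest possible). The log2 ratio of XTH19 to XTH18 counts was 0.86, 0.18 and 0.70 in SEC and -1.61, -1.01 and -0.86 in REC, with no overlap (exact permutation test, two-sided p = 0.1, the smallest possible). Here too the test could not fall under 0.05, and the ratios rest on the same counts as the levels given above.

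XTH23 and XTH14 lie head to tail on the plus strand with 412 bases between them, and both were higher in SEC. Per kilobase of exon, XTH23 stood at 1090 ± 134 CPM and XTH14 at 20.5 ± 11 CPM in SEC (SD, n = 3 each). On chromosome 5, XTH12, XTH13, XTH25 and XTH22 follow each other on the minus strand with 0.71 to 1.39 kb between neighbours. XTH22 alone of these 4 passed the filter on low counts.

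**Figure D4:**
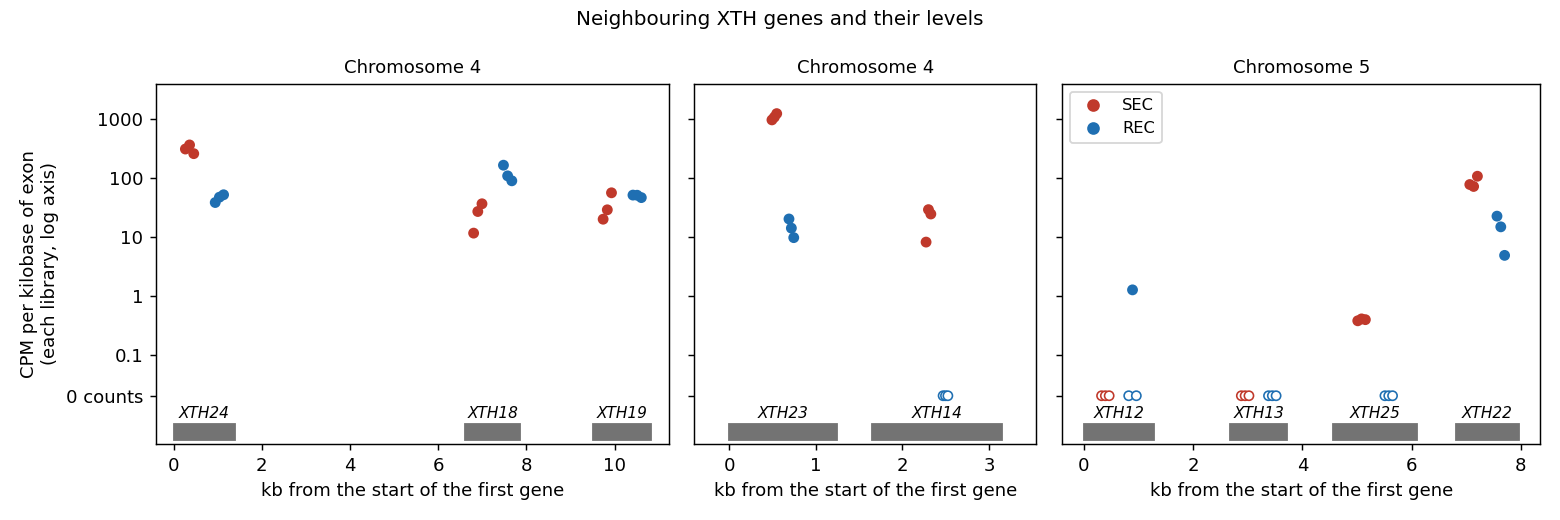
CPM per kilobase of exon (log axis) of neighbouring XTH genes in each library, with SEC left of REC at every gene, open points for 0 counts, and grey boxes for the gene spans at their distance in kb from the start of the first gene. XTH24 is higher in SEC while XTH18, the next XTH gene, is higher in REC, and among the 4 genes on chromosome 5 XTH22 is the highest in every library.

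The promoters of XTH23 and XTH18 are shown because these were the most abundant members per length in SEC and in REC. Each run is the 250 bases before the annotated gene start in RefSeq TAIR10.1, 5′ to 3′ on the gene's strand, with matches to the searched words in capitals. RefSeq places these starts further upstream than the count table does (13128643 for XTH23, 14827047 for XTH18). The windows therefore do not adjoin the gene spans given above.
XTH23 (chr4:13128144-13128393, plus strand): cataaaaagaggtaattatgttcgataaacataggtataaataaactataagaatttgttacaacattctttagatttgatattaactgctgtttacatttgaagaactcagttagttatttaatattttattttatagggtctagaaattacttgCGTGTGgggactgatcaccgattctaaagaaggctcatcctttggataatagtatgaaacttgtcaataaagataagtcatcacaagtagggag
XTH18 (chr4:14827212-14827461, minus strand): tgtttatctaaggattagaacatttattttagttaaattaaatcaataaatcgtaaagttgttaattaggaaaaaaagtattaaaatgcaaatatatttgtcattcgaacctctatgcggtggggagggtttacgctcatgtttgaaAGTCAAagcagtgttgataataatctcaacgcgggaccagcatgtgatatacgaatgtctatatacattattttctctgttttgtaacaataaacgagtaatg
The words searched on both strands were TGTCTC (auxin response element), CGTGTG and CGTGCG (brassinosteroid response elements) and TTGACC and TTGACT (W boxes). CGTGTG was found once in the XTH23 window, in 4 of 33 XTH windows (12.1%) and in 5.4% of the windows of 27443 protein-coding genes. TTGACT was found once in the XTH18 window, read there on the other strand, in 6.1% of XTH windows and in 19.1% of all windows. TGTCTC stood in 2 XTH windows (XTH3 and XTH6) and in 10.9% of all windows. TTGACC stood in 12.1% of XTH windows and 12.2% of all, and CGTGCG in none of the XTH windows and 1.6% of all. A match describes the bases only.

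Other genes that act on xyloglucan were grouped by step. Of 21 listed genes 18 were tested: SEC had higher levels of 5 and lower levels of 6, and 7 had no call. These shares are near those over all genes tested, of which 28.9% were higher in SEC and 31.9% lower, so the counts show nothing particular to the list. Their median log2 change was -0.79, also with the gene at 0 counts in SEC set to its bound. Of the exoglycosidases that trim xyloglucan in the wall, 4 of 5 were lower in SEC and 1 was higher. XYL1 (AT1G68560), the alpha-xylosidase, had 4.44, 4.58 and 6.5 CPM in SEC and 238, 322 and 465 CPM in REC (log2 -6.05 ± 0.36, SE; edgeR adjusted p = 1.41e-05). BGLC1 (AT5G20950), a beta-glucosidase, had 2.49, 5.47 and 4.83 CPM in SEC and 223, 217 and 215 CPM in REC (log2 -5.67 ± 0.34, SE; edgeR adjusted p = 1.41e-05). Both genes were abundant in REC and low in SEC in every library.

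The beta-galactosidase gene BGAL10 (AT5G63810) had 0.178, 1.16 and 4.46 CPM in SEC and 70.0, 54.1 and 127 CPM in REC (log2 -5.46 ± 0.87, SE; edgeR adjusted p = 0.000958; -6.87 without SEC replicate 3). The alpha-fucosidase gene AXY8 (AT4G34260) had 6.48, 16.3 and 21.3 CPM in SEC and 143, 188 and 205 CPM in REC (log2 -3.60 ± 0.43, SE; edgeR adjusted p = 0.000226). BGLC3 (AT5G04885), a second beta-glucosidase, was the exception, with 165, 190 and 185 CPM in SEC and 44.7, 42.6 and 118 CPM in REC (log2 1.4 ± 0.40, SE; edgeR adjusted p = 0.0152). Its call ended with library size alone (adjusted p = 0.0798) and without SEC replicate 2 (0.0522), and its value was 2.05 without REC replicate 3.

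**Figure D5:**
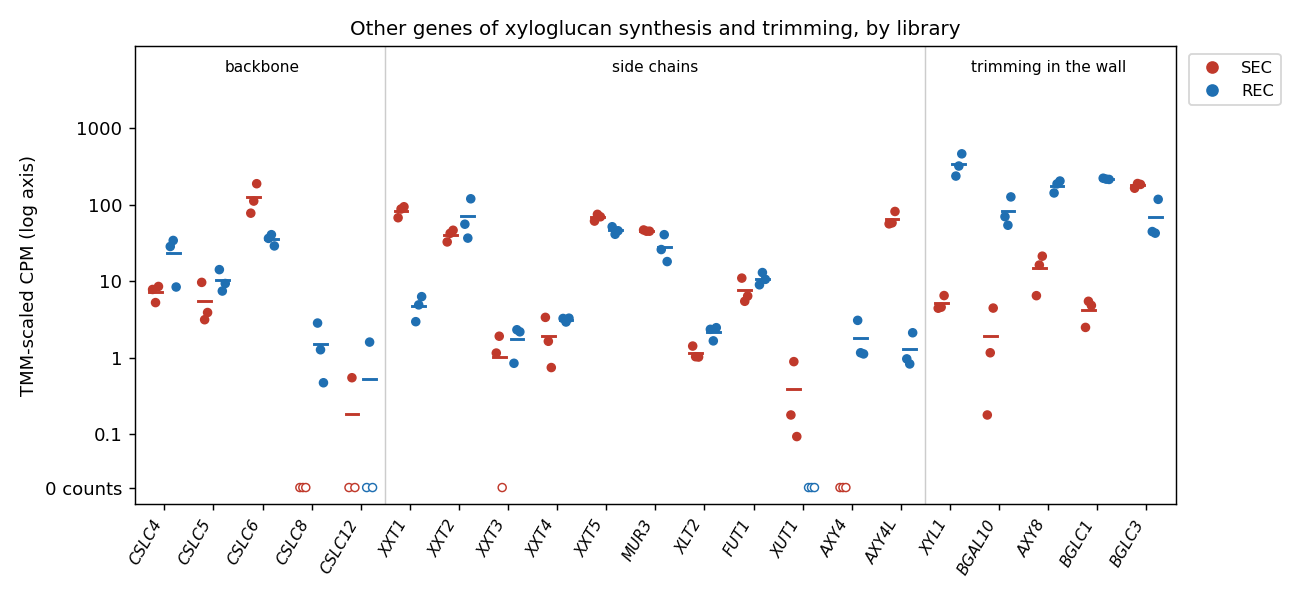
TMM-scaled CPM (log axis) of 21 other genes of xyloglucan synthesis and trimming, 1 point a library, with SEC left of REC, lines at the means and open points for 0 counts. XYL1, BGAL10, AXY8 and BGLC1 stand at 54.1 to 465 CPM in REC and at 0.178 to 21.3 CPM in SEC, while BGLC3 is higher in SEC.

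Among the side-chain genes, 3 of 10 tested were higher, 1 was lower and 6 were not called, against 28.9% higher and 31.9% lower over all genes tested. The xylosyltransferase gene XXT1 (AT3G62720) had 67.8, 88.2 and 94.4 CPM in SEC and 2.96, 4.91 and 6.29 CPM in REC (log2 4.14 ± 0.35, SE; edgeR adjusted p = 4.17e-05). The acetyltransferase gene AXY4L (AT3G28150) had 56.4, 58.1 and 81.9 CPM in SEC and 0.965, 0.828 and 2.12 CPM in REC (log2 5.64 ± 0.45, SE; edgeR adjusted p = 3.35e-05). Its relative AXY4 (AT1G70230), which acetylates the same polymer, had 0 counts in SEC and 3.08, 1.16 and 1.1 CPM in REC, at least 21.5-fold lower (edgeR adjusted p = 0.0058, and 0.0551 with the replicate number as a block), and at least 13.9-fold lower without REC replicate 1 or 12.9-fold without SEC replicate 2. Thus the acetyltransferase genes were called in opposite directions, and AXY4L was the more abundant in SEC. In REC both were low and their levels overlapped, with AXY4L the higher in replicate 3. AXY4 had 91 counts over all libraries.

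The third higher side-chain gene, the xylosyltransferase gene XXT5, lay outside the rule for named genes and is named after its values were seen. It was called with little room (log2 0.57 ± 0.20, SE; edgeR adjusted p = 0.0395). It had 61.3, 75.1 and 69.8 CPM in SEC and 51.7, 41.2 and 45.8 CPM in REC, and its value was 0.03 with library size alone (adjusted p = 0.916). Its call ended without any 1 of the SEC libraries, without REC replicate 2 or 3 (adjusted p 0.0539 to 0.182) and with the replicate block (0.0856). Of the backbone synthase genes, CSLC6 (AT3G07330) had 77.8, 112 and 189 CPM in SEC and 36.4, 40.7 and 29.0 CPM in REC (log2 1.83 ± 0.34, SE; edgeR adjusted p = 0.00208). CSLC4 (AT3G28180) was lower, with 7.81, 5.26 and 8.55 CPM in SEC and 28.5, 34.2 and 8.41 CPM in REC, which overlap (log2 -1.72 ± 0.53, SE; edgeR adjusted p = 0.0214). Leaving out SEC replicate 1 or 2, or REC replicate 1 or 2, ended the call (adjusted p 0.0508 to 0.0778), as did the replicate block (0.0757).

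The libraries themselves held 13222538 to 17192864 counts over genes. QRT2, IDA, HAE, HSL2 and ADPG2 mark the abscission zone. They were called higher in SEC except HSL2, which was lower, against 28.9% higher and 31.9% lower over all genes tested. These genes had counts on both sides, apart from IDA in REC replicate 1, and summed to 7040 to 9060 CPM in SEC and 208 to 508 CPM in REC. Most of the REC sums was HAE, at 122, 131 and 354 CPM. QRT2 had 1550, 1750 and 1850 CPM in SEC and 23.4, 22.6 and 79.6 CPM in REC (log2 5.36 ± 0.57, SE; edgeR adjusted p = 0.000123). REC replicate 3 stood apart from the other REC libraries, with a correlation of log2 CPM across genes of 0.579 to 0.611 with SEC against 0.515 to 0.564 for the other REC libraries. It had 27.8 CPM of ADPG2 and 6.17 CPM of IDA, against at most 1.66 and 0.331 CPM in the other REC libraries, and SEC had 3890 to 5660 and 343 to 496 CPM. XTH5 and XTH10 were likewise detected in REC in replicate 3 alone, and XTH11, XTH24, XTH27 and XTH30 had their highest REC level there. XTH22, XTH23 and XTH29, also higher in SEC, had their lowest REC level there. The part of the SEC-rich transcripts of that library in these XTH values was not tested. Without REC replicate 3, 10 tested XTH genes were higher and 6 lower, XTH33 having then passed the filter on low counts.

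Markers of other cell types also moved with the comparison, in which 31.9% of all genes tested were called lower in SEC. The 5 epidermal markers, 4 of them called lower in SEC, summed to 0.888 to 4.88 CPM in SEC and 356 to 367 CPM in REC. Most of the REC sums was CER1, at 186, 195 and 244 CPM, and CER5, at 153, 132 and 65.4 CPM. PDF1 was low in REC, at 3.32, 0.607 and 2.35 CPM, and had 0 counts in SEC. ATML1 was low on both sides, at 3.37, 0 and 0 CPM in SEC and 4.16, 0 and 0.706 CPM in REC, and was not called (edgeR adjusted p = 0.833). The 5 mesophyll markers, 4 of them called lower, summed to 49.3 to 61.0 CPM in SEC and 797 to 1840 CPM in REC. LHCB1.3 made up most of the SEC sums, at 45.6, 38.1 and 53.2 CPM, and RBCS1A most of the REC sums, at 897, 1120 and 645 CPM. CA1 was not called, with 9.05, 6.22 and 6.22 CPM in SEC and 3.02, 56.4 and 3.06 CPM in REC (edgeR adjusted p = 0.237). The part of epidermal and mesophyll RNA in the XTH genes that were lower in SEC was not tested. Guard cell, phloem, xylem and pollen markers summed to at most 1.86 CPM each in SEC and 14.8 CPM in REC. The 14.8 CPM were phloem markers in REC replicate 2, against 0.965 and 0.882 CPM in REC replicates 1 and 3. Mesophyll markers were also highest in REC replicate 2, at 1840 CPM against 1140 and 797 CPM in REC replicates 1 and 3. Touch and wound response genes, 9 in number, split into 5 higher in SEC, 2 lower and 2 without a call, against 28.9% higher and 31.9% lower over all genes tested, and summed to 3910 to 4440 CPM in SEC and 963 to 1610 CPM in REC. The higher genes were ZAT10 (log2 4.48), ZAT12 (2.95), WRKY33 (2.65), CML38 (1.22) and WRKY40 (0.91), the same direction as XTH22. The calcium sensor genes TCH2 and TCH3, found in the same screen for touch-induced genes as XTH22, were lower in SEC by log2 -1.89 ± 0.32 and -2.01 ± 0.31 (SE; edgeR adjusted p = 0.00125 and 0.000799), the opposite direction to XTH22. The part of protoplasting in these levels was not tested.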

How the data were processed

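The authors deposited unnormalized counts per gene for 3 SEC and 3 REC libraries. The submitters' processing notes name TopHat2 2.0.9, HTSeq 0.6.1, Trimmomatic 0.32.3 and Picard 1.119 among their tools, and the build TAIR10. How strand and duplicates were treated, and the annotation release, is not given in the sources used here. cDNA was amplified from low input, per the labels' protocols, so counts are not independent molecules. Reads at more than 1 site, 6.86% to 11.83% of records per library, and reads assigned to no feature, 42.78% to 45.91%, were listed apart and left out.

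Counts were fitted over the whole table with edgeR 4.0.16 in R 4.3.3 (filterByExpr, TMM factors, quasi-likelihood F test, Benjamini-Hochberg adjustment over 17246 genes, threshold 0.05), after a test on simulated data. SE is the log2 fold change divided by the square root of F. Alternatives were RLE, upper-quartile and no scaling factors, no filter, at least 10 CPM in 3 libraries, DESeq2 1.42.0, limma 3.58.1 voom with quality weights, a replicate block, a threshold of 0.01 and each library left out. Bounds keep the scaling of all libraries. Coordinates are those of the table on TAIR10, counted from 1. Exons, strand and sequences are from RefSeq TAIR10.1, in which 1 XTH gene, XTH15, overlaps a gene on the other strand. The members, the pathway and marker lists and the naming rule (every member, and up to 10 called pathway genes in order of adjusted p) were chosen with earlier results of these data known.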

Additional observations from a re-analysis of the deposited data

How the results depend on the processing

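Of 221 single-gene results of the 16 tested XTH genes under an alternative, 211 kept their direction and side of the threshold, 7 lost the call (XTH9 and XTH11, each time with a library left out), 3 gained one (XTH19), and none changed direction. The 221 leave out the threshold of 0.01 and members that a filter removed. At an adjusted p under 0.01, 9 XTH genes were higher and 4 lower, as XTH11 and XTH9 fell out (edgeR adjusted p = 0.0195 and 0.0253). Higher XTH genes numbered 8 to 10 and lower ones 4 to 6 over the alternatives. With a library left out the counts were 9 to 10 higher and 4 to 6 lower. Genes of xyloglucan synthesis and trimming that were higher numbered 3 with library size alone and 3 at an adjusted p under 0.01, against 5, and 3 to 5 with a library left out. Over all genes the median change was -0.07 with TMM factors, -0.31 with upper-quartile factors and -0.61 with library size alone, and the share of calls that were higher was 47.5% under TMM and 33.7% under library size alone. Replicate numbers do not pair the libraries by any label, and deviations of same-numbered libraries correlated at -0.024, -0.013 and -0.015. With the replicate block, 10 XTH genes were higher and 5 lower, and no XTH call changed. At 3 counts over a cell type, fold changes of members at 0 are bounds only.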
